A study of Mus musculus with 59 samples.

Results

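The comparison set brainstem tumours carrying a tagged K27M allele of the mouse histone gene H3f3a against hindbrain neurospheres carrying the same allele, by the H3K27me3 islands called in each. Members were the H3K27me3 island lists labelled K27M-Tag from brainstem tumours and from hindbrain neurospheres. There were 9 such lists, 6 from tumours and 3 from neurospheres, among 20 H3K27me3 lists and 59 samples of the series. The tumours had the genotype Nestin-creERT2, H3f3a LSL-K27M-Tag/+, LSL-PDGFRαV544ins and Trp53 flox/flox, so a drug-inducible Cre driven by the Nestin promoter switched on the mutant histone and a mutant growth factor receptor and removed the tumour suppressor Trp53. The neurospheres had the genotype Nestin-cre and H3f3a LSL-K27M-Tag/+, came from the hindbrain of e15.5 embryos and were grown as neural precursors. They carried neither the receptor transgene nor the Trp53 deletion. Of the tumours, 4 were male and 2 female, and all 3 neurospheres were female. Lists with the tagged wild-type histone (WT) came from 5 tumours and 3 hindbrain neurospheres, whose labels give H3f3a LSL-WT-Tag/+ in place of the K27M allele and otherwise the genotypes above. Of the WT tumours 4 were female and 1 male, and of the WT neurospheres 2 were female and 1 male. Sex was therefore not balanced between the genotypes. A further 3 K27M-Tag lists came from female neurospheres of the e15.5 forebrain. The labels do not say that each list came from a separate animal or embryo, and the p-values then measure only how far these samples spread, which may be technical. Tumour and neurosphere lists differed at once in Cre driver, in alleles, in growth in the animal or in culture, in the handling of frozen tissue or dissociated cells, in the host cells a tumour still holds and in sex. These cannot be told apart here.

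H3K27me3 is the trimethyl mark that the Polycomb complex PRC2 places on lysine 27 of histone H3, chiefly at repressed developmental genes, where it starts at CpG-rich sites and spreads into broad domains. The K27M change replaces that lysine in a minority of H3 molecules, impairs PRC2 and lowers the mark over most of the genome, while the strongest PRC2 sites tend to keep it. In children the change defines most diffuse midline gliomas, including those of the brainstem. An island, as used here, is a stretch of enriched windows of 200 bp joined across short gaps, and its deposited count is the number of reads inside it.

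Autosomal islands held between 2346983 and 9370425 reads per tumour and between 4376553 and 5321143 per neurosphere. Neither the total number of reads per library nor a scale factor from the added fly chromatin was used here, and all values are therefore relative within a library. The share of island reads on the X chromosome was at most 0.58% in the 4 tumours labelled male. It was 52.2% and 35.1% in the female tumours and between 27.9% and 35.1% in the neurospheres. Because sex moved the X chromosome this much, the comparison was kept to autosomes.

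Islands covered several times more of the autosomes in tumours than in neurospheres. In tumours the covered length was lowest at 67.1 Mb, had a median of 153.4 Mb and was highest at 230.9 Mb. In neurospheres it was 45.2, 37.3 and 45.6 Mb. Every tumour lay above every neurosphere, and the tumours differed among themselves far more than the cultures did. Tumours averaged 159.1 Mb ± 66.5 (SD, n = 6) against 42.7 Mb ± 4.71 (SD, n = 3) for neurospheres, a ratio of geometric means of 3.43 (two-sided exact permutation test, p = 0.0119, the smallest that 6 against 3 samples can give, adjusted over 4 measures p = 0.0238). Restricted to the 2 female tumours and the 3 neurospheres the ratio was 2.13, with p = 0.1 by the same exact test, the smallest that 2 against 3 samples can give. At a stricter island threshold, the same minimum of reads per kb for every list, the groups overlapped. Tumour 5 then covered 25.3 Mb, below the 26.2 to 32.4 Mb of the neurospheres, and the ratio was 2.89 (exact permutation test, adjusted p = 0.119). Fewer cells with a mark and less mark per cell cannot be told apart in such bulk chromatin.

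The difference was spread over the chromosomes. On 18 of 19 autosomes the shortest tumour total exceeded the longest neurosphere total, chromosome 9 being the exception. The ratio of mean covered lengths ran from 2.64 on chromosome 12 to 5.45 on chromosome 17.

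Tumours also had more islands. Their number was 10716 at the lowest, 19238.5 at the median and 42642 at the highest in tumours. The 3 neurospheres had 7614, 6020 and 6647. The groups did not overlap, and the ratio was 2.91 (exact permutation test, two-sided, p = 0.0238, adjusted p = 0.0317). At the stricter island threshold tumour 5 had 2466 islands, below the 3006 to 3821 of the neurospheres. Tumour 5 had the fewest island reads of all 9 libraries, 2346983, and covered 67.1 Mb, against 45.6 Mb in the longest neurosphere list. The weakest island of each list held 12 to 25.9 reads per kb in tumours and 12.3 to 13.1 in neurospheres. The part of total depth in the covered length was not tested.

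The width of the typical island did not separate the groups. The median island width was 3.6 kb at the lowest, 5.4 kb at the median and 6.6 kb at the highest in tumours, and 3.6, 3.8 and 4.4 kb in neurospheres. The ratio was 1.31 (exact permutation test, two-sided, adjusted p = 0.179). This value mixed long lists with short ones. When the 6020 strongest islands by reads were taken from every list, the ratio was 2.55 (exact permutation test, adjusted p = 0.0119). Medians were then 6.6 to 15.6 kb in tumours and 3.8 to 4.8 kb in neurospheres. That cut kept the whole list of neurosphere B and only part of each tumour list, and ranking by reads favours wide islands. With the same minimum of reads per kb for every list the groups overlapped, at 3.4 to 7.2 kb in tumours and 5.4 to 6.2 kb in neurospheres. Very wide islands were more numerous in the longer tumour lists, with 38 to 233 islands above 50 kb per tumour and 23 to 30 per neurosphere. Beside the whole lists, these were 233 of 24621 islands in tumour 2, 103 of 42642 in tumour 3 and 38 of 10716 in tumour 5. In neurospheres A, B and C they were 29 of 7614, 23 of 6020 and 30 of 6647. The share of such islands in a list was not tested.

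**Figure D1:**
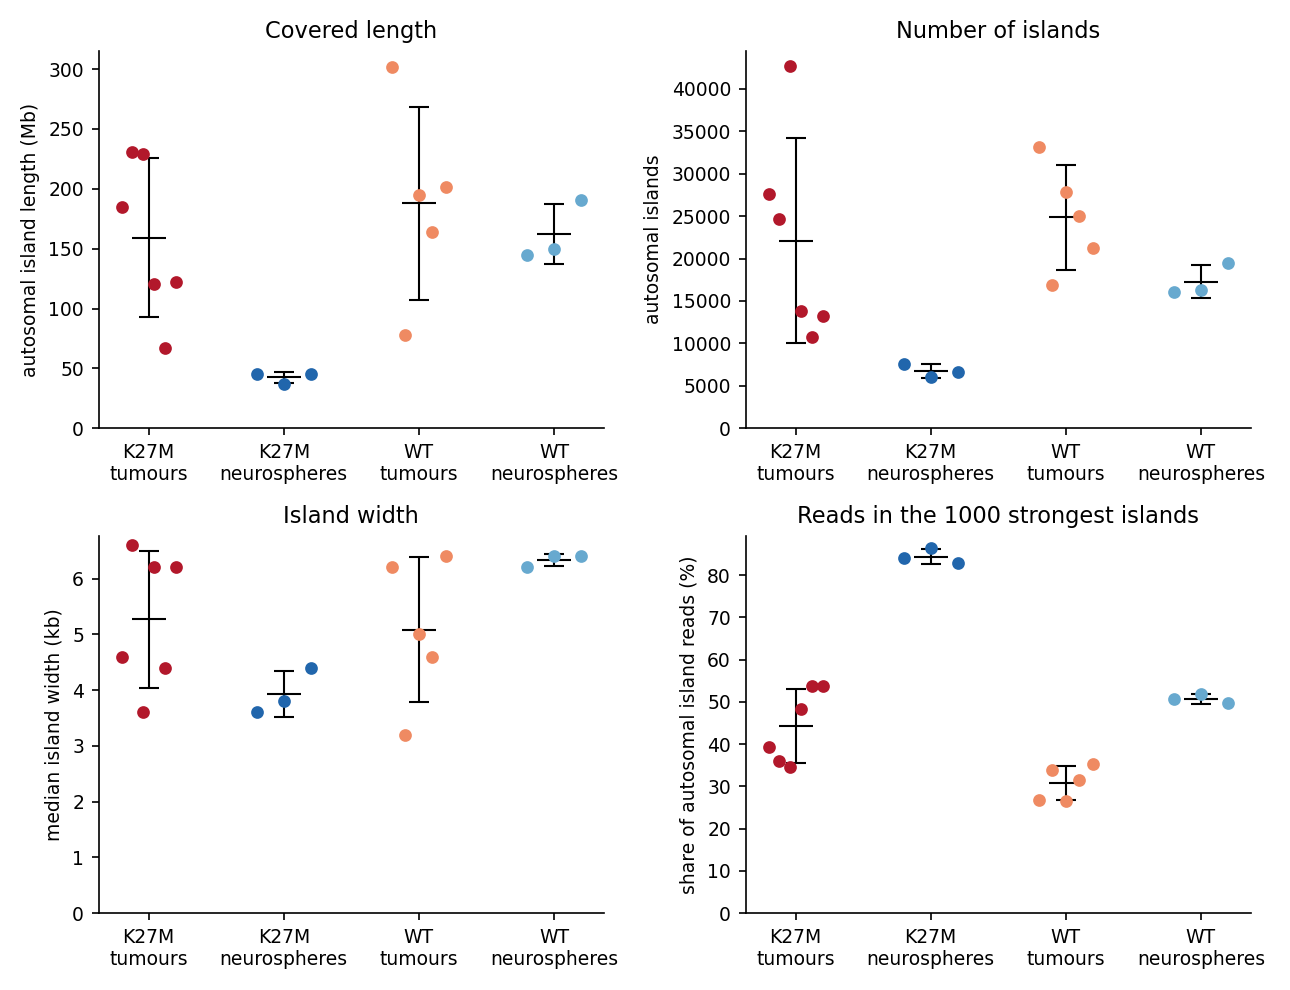
Covered autosomal length (Mb), number of islands, median island width (kb) and share of island reads in the 1000 strongest islands (%) for each H3K27me3 list; points are libraries, bars are mean ± SD. The 6 K27M tumours lie above the 3 K27M neurospheres in length and number and below them in the share of the strongest islands, while widths overlap.

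Reads were more concentrated in the neurospheres. The 1000 strongest islands held 84%, 86.4% and 82.9% of autosomal island reads in neurospheres. In tumours they held 34.5% at the lowest, 43.8% at the median and 53.8% at the highest. The groups lay far apart, at 44.3% ± 8.74 (SD, n = 6) against 84.4% ± 1.79 (SD, n = 3), a ratio of 0.516 (exact permutation test, two-sided, p = 0.0119, the smallest possible, adjusted p = 0.0238). A fixed 1000 islands is a larger part of the shorter neurosphere lists. With every list cut to its 6020 strongest islands, the 1000 strongest held 54.8% to 62.4% in tumours and 83.3% to 86.4% in neurospheres. At the stricter island threshold they held 45.0% to 85.7% in tumours, highest in tumour 5, and 88.3% to 91.5% in neurospheres. With the strongest islands laid end to end, the first 10 Mb held 67.1% to 73.7% of reads in neurospheres and 16.1% to 36.3% in tumours. In neurospheres 112 to 133 islands, spanning 4.62 to 5.75 Mb, were enough to hold 50% of the reads. In tumours that took 762 to 3275 islands, spanning 18.4 to 76.3 Mb. Read density followed the same order, with 105 to 118 reads per kb of island in neurospheres and 35.0 to 76.8 in tumours.

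**Figure D2:**
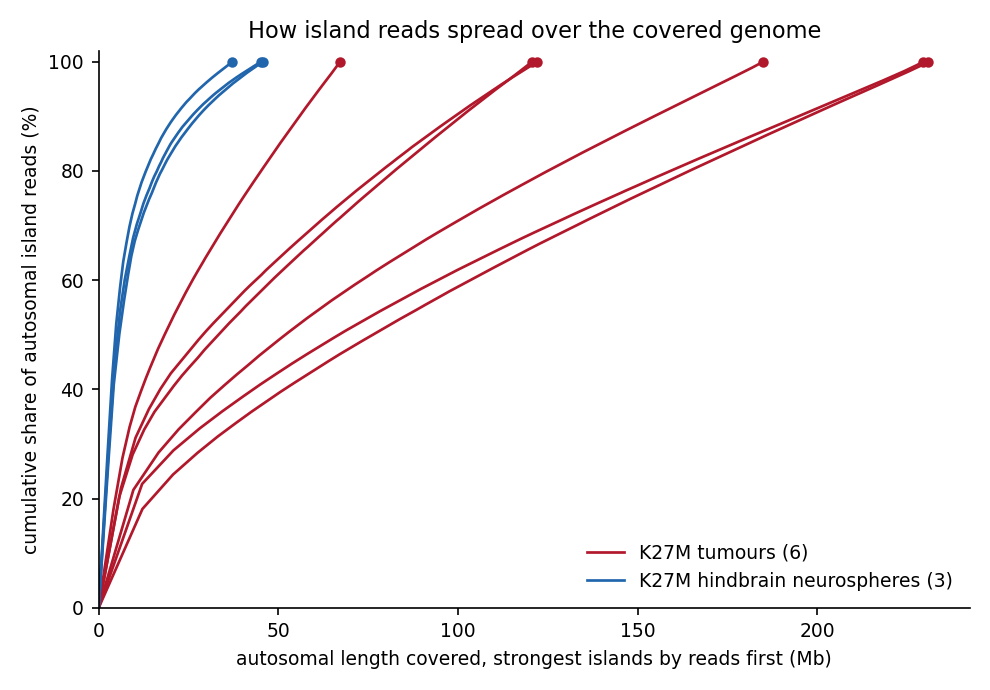
Cumulative share of autosomal island reads (%) against covered length (Mb), strongest islands first, for each of the 9 libraries; a dot ends each list. The neurosphere curves climb to 67.1% to 73.7% within the first 10 Mb, and the tumour curves reach 16.1% to 36.3% there.

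More of the length marked in neurospheres was also marked in tumours than the reverse. Of the length of a neurosphere list, 46.5% to 73.6% (median 64.0%) lay inside the islands of a tumour over the 18 pairs. Tumour 5 held less of each neurosphere than the other tumours did, 48.6% of A, 53.5% of B and 46.5% of C. Of the length of a tumour list, 11% to 32.7% (median 17.7%) lay inside those of a neurosphere. Lists of different length fix part of this imbalance. Merging the 9 lists gave 43627 autosomal regions spanning 381.8 Mb. Tumours called 58.7% to 78.8% of the 3621 regions that all neurospheres called. Neurospheres called 48.2% to 53.5% of the 4397 regions that all tumours called.

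A set of regions was called in every tumour and in no neurosphere. The lists hold no counts below the calling threshold, so a missing call is not absence of the mark. It held 1905 regions, 15.6% of the 12188 whose number of calls could give a p under 0.05. The opposite set, called in all 3 neurospheres and in no tumour, held 560 regions, or 4.59% of the same 12188. Fisher's exact test with Benjamini-Hochberg adjustment passed 0 of the 12188 (0%), where the smallest adjusted p was 0.0589. Without adjustment, 4499 regions had p under 0.05. Over the 6020 strongest islands of every list, 521 regions were called only in tumours and 1159 only in neurospheres, and all passed (smallest adjusted p = 0.0312). That cut dropped islands from every tumour list and none from neurosphere B, and a dropped island counted as no call. Fully separated regions all have p = 0.0119 by Fisher's exact test. They therefore pass or fail together, according to how many regions are tested (4408 after the cut) and separated, so passing adds nothing about single regions. At a stricter island threshold tumour-only regions stayed the larger set, with 506 against 310, and 0 passed (smallest adjusted p = 0.0991). Leaving out any of tumours 1 to 5 also let every separated region pass, and leaving out tumour 6 or any neurosphere let none pass. A further 20259 regions were called in a single tumour and nowhere else.

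**Figure D3:**
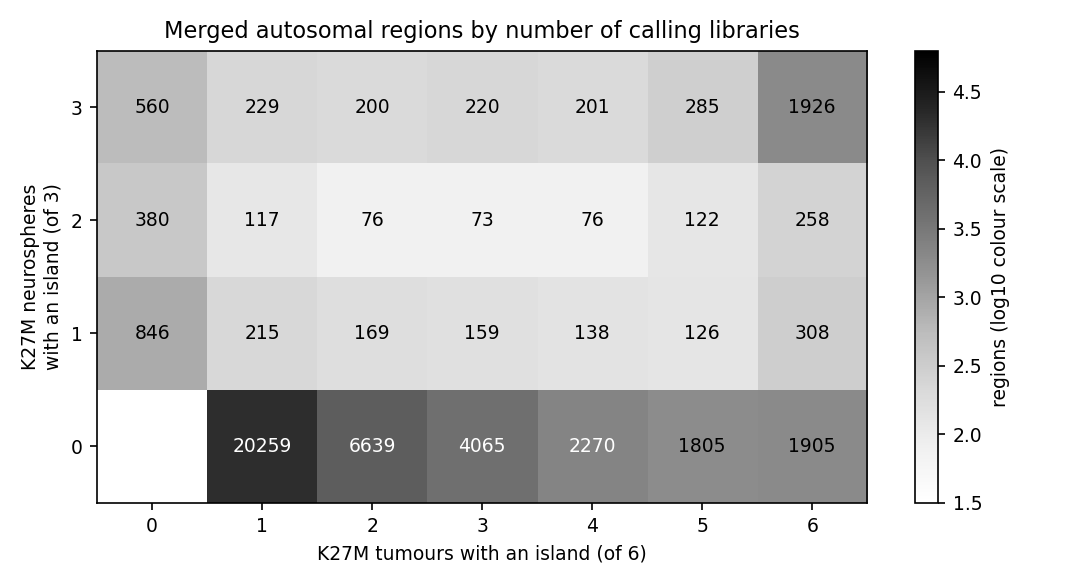
Number of merged autosomal regions by how many of the 6 tumours (x axis) and of the 3 neurospheres (y axis) held an island there; the grey scale is log10 of the number. The lower right corner holds the 1905 regions of all tumours and no neurosphere, the upper left the 560 of the opposite set, and the upper right the 1926 called in all 9 libraries.

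The 3 sets differed in width and in how much signal they held. The median merged width was 15.8 kb for regions of the tumours only, 6.0 kb for regions of the neurospheres only, 27.2 kb for the 1926 regions called in all 9 libraries and 5.2 kb over all merged regions. Regions of the tumours only held 11.1% to 15.0% of each tumour's autosomal island reads. Regions of the neurospheres only held 2.60% to 3.42% of the reads of each neurosphere. Wider merged regions are more likely to be called in any library, so the shares in other lists given next are to be read beside these widths.

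Regions called only in K27M tumours were mostly also marked in WT tumours. Of the 1905, 56.7% were called in all 5 WT tumours and 2.31% in none, against 12.6% and 34.0% of all merged regions. In WT hindbrain neurospheres 38.3% were called in all 3 libraries and 33.8% in none, against 20.9% and 61.4% of all merged regions. In K27M neurospheres from the forebrain, which also lack the tumour alleles, 88.7% were called in none of 3 libraries, against 88.8% of all merged regions of any width. H3K4me3, the mark of CpG-rich promoters, had a peak at 55.2% of them in both K27M tumours profiled for it, and H3K27ac, a mark of active promoters and enhancers, at 24.6% in all 6 K27M tumours. The matching shares over all merged regions were 18.4% and 9.41%. Among regions 10 to 20 kb wide, H3K4me3 was found at 54.7% of the tumour-only regions and at 32.5% of all regions. At that width, calls in all 5 WT tumours also stayed more frequent, at 54.6% against 28.0%. So did H3K27ac in all 6 K27M tumours, at 21.85% against 15.46%. Calls in all 3 WT hindbrain neurospheres did not, at 35.4% against 37.3%. No forebrain library had a call at 89.5% of the tumour-only regions, against 79.5% of all regions. All merged regions include the 20259 called in a single tumour, while these 1905 were chosen for calls in all 6. How much of each contrast this choice makes was not tested. Regions of that width called in all 9 libraries had higher shares than the tumour-only regions. They were 85.8% for H3K4me3, 26.2% for H3K27ac and 78.3% for calls in all 5 WT tumours.

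Regions called only in K27M neurospheres were mostly marked in WT hindbrain neurospheres and less often in WT tumours. Of the 560, 78.9% were called in all 3 WT hindbrain neurospheres, against 20.9% of all merged regions. In WT tumours 0.179% were called in all 5 libraries and 58.0% in none, against 12.6% and 34.0%. Forebrain K27M neurospheres called 36.4% of them in all 3 libraries, against 6.73% of all merged regions. H3K4me3 was present in both K27M tumours at 10.2% of them, against 18.4%. H3K27ac was near its share over all merged regions, present in all 6 tumours at 8.21% against 9.41% and in none at 73.6% against 74.9%. The 1926 common regions were marked nearly everywhere, in all 3 WT hindbrain neurospheres at 98.3%, in all 5 WT tumours at 85.3% and in all 3 forebrain cultures at 82.2%, and 85.2% of them had H3K4me3 in both tumours.

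The tumour-only regions with the most reads were broad domains. The strongest, chr2:71492601-71659200 (mouse build mm9, as are all positions here), was called over 63.6 to 163.6 kb in the 6 tumours. Its level was 810.8 reads per 1000000 autosomal island reads (RPM) at the lowest, 1349 at the median and 2046 at the highest tumour. All 5 WT tumours and all 3 WT hindbrain neurospheres called it, as did all 3 K27M forebrain cultures. The K27M hindbrain neurospheres were thus the H3K27me3 libraries without a call there. Next came chr15:80355601-80534600, 179.0 kb wide, with a tumour median of 867.3 RPM, and chr8:114197401-114362800, 165.4 kb wide, with 658.0 RPM. The other 2 were chr13:41265401-41343200 at a median of 638.7 RPM and chr13:42720201-42798000 at 512.6 RPM, both 77.8 kb wide. Tumour levels at the last of these spread from 202.0 to 997.7 RPM. The first 3 of these 5 domains held H3K27ac peaks in all 6 K27M tumours, and the chromosome 13 domains in none.

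The neurosphere-only regions with the most reads were shorter. The strongest, chr6:51870401-51899000, was 28.6 kb wide and stood at 631.8, 787.1 and 1069 RPM in the 3 neurospheres. It was called in all 3 WT hindbrain and all 3 forebrain neurospheres and in none of the 5 WT tumours. The second, chr5:13501801-13536600, stood at 298.8, 449.9 and 1073 RPM, neurosphere C lying well above the other two. It had no call in WT tumours or forebrain cultures and a call in 2 of 3 WT hindbrain cultures. The remaining 3 were chr2:173073401-173106600, chr3:56455601-56488000 and chr2:106058801-106080600, with medians of 452.5, 393.4 and 354.9 RPM. The islands of single neurospheres covered 17.2 to 34.8 kb over the 5 regions, which are 21.8 to 34.8 kb wide. With no counts below the calling threshold in the lists, no fold against the uncalled group is given.

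Inside the common regions the mark was laid out differently. Tumour islands were longer there, with a median called length per region of 10.4 to 22.0 kb per tumour and 17.3 kb ± 3.94 (SD, n = 6) on average. In the neurospheres it was 7.5, 6.6 and 7.6 kb. No library of one group reached the other, and the ratio was 2.33 (exact permutation test, two-sided, p = 0.0119, the smallest possible). The shorter neurosphere islands mostly sat within the tumour islands. Within common regions 74.9% to 94.1% (median 87.0%) of neurosphere island length lay inside the islands of a tumour, and 35.1% to 55.2% (median 41.4%) of tumour island length lay inside those of a neurosphere. Yet the common regions held 84.6% to 88.4% of the reads in neurospheres and 43.8% to 69.3% in tumours (ratio 0.627, exact permutation test, two-sided, p = 0.0238). Both measures were chosen after the calls had been seen.

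Reads per common region shifted in both directions. Of the 1926 regions, 1303 (67.7%) passed edgeR's quasi-likelihood F test (TMM factors, Benjamini-Hochberg), 728 (37.8%) rising and 575 (29.9%) falling in tumours relative to neurospheres. The median log2 fold over all 1926 was 0.24. With library size alone in place of TMM factors it was 0.56, and 849 regions rose and 438 fell. The regions that fell carried most of the signal of the cultures. Together the 575 held 72.6% to 77.1% of neurosphere reads and 22.8% to 38.8% of tumour reads. The 728 that rose held 3.5% to 3.9% of neurosphere reads and 12.5% to 17.5% of tumour reads. These shares follow from the direction of each call and are a description. In the regions that rose, the median called length was 18.9 kb in tumours and 4.53 kb in neurospheres. In those that fell it was 21.3 and 18.1 kb, so lower read shares there came with islands that were no shorter in tumours. H3K4me3 in both tumours was about as frequent in the regions that rose (84.9%), fell (88.2%) or did neither (82.8%).

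The direction varied with how strong a region was in WT hindbrain neurospheres. These libraries are not part of the contrast but share tissue, embryonic day and experiment numbers with the K27M cultures. The level in the K27M cultures is the denominator of the fold, and how much of the pattern this builds in was not tested. The common regions were split into 4 groups of equal size by their mean level there, a description chosen after the data had been seen. In the weakest group, up to 64.0 RPM in WT cultures, 277 regions rose and 34 fell, with a median log2 fold of 0.96. In the next group 205 rose and 74 fell, and in the one after it 171 rose and 146 fell, with medians of 0.46 and 0.13. In the strongest group, from 292.8 RPM upward, 75 rose and 321 fell, and the median was -1.23. The strongest group held 37.0% ± 8.32 (SD, n = 6) of tumour reads and 73.9% ± 2.44 (SD, n = 3) of neurosphere reads. With library size alone the 4 medians were 1.28, 0.79, 0.46 and -0.90, in the same order and with the same signs.

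**Figure D4:**
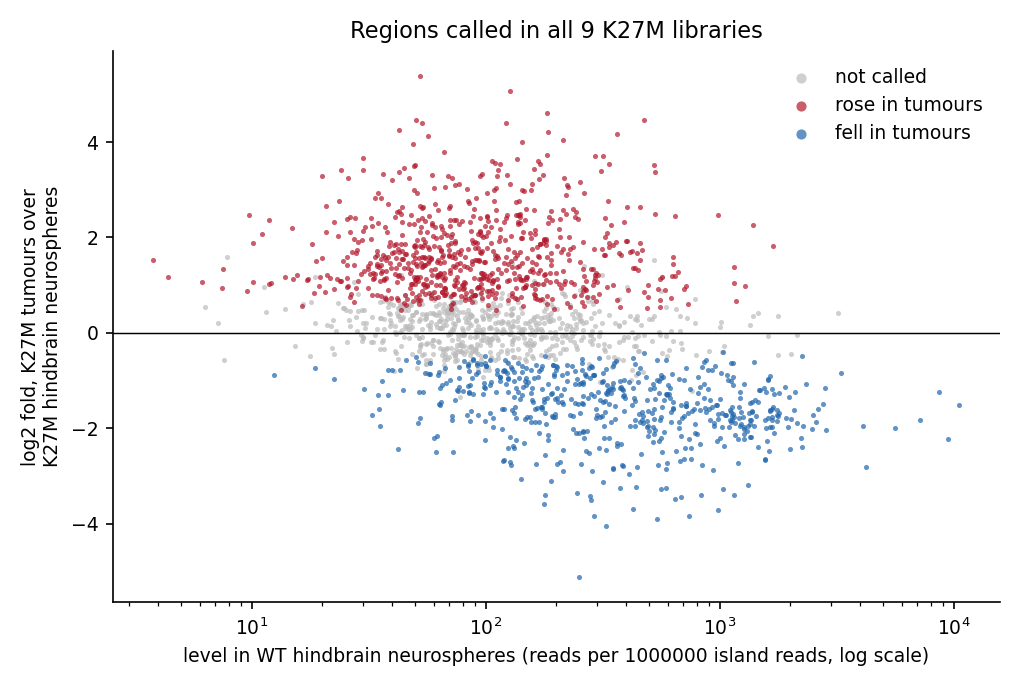
Log2 fold of reads, K27M tumours over K27M hindbrain neurospheres, against the mean level in the 3 WT hindbrain neurospheres (reads per 1000000 island reads, log scale) for the regions called in all 9 K27M libraries; 4 regions with no WT call are left off. Red points rose and blue points fell by edgeR's test, and blue points gather at high WT levels, where the strongest group had 321 that fell and 75 that rose.

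The 3 regions with the highest mean share over the 9 libraries all fell. At chr6:52021001-52284200, 263.2 kb wide, neurospheres stood at 28513, 30175 and 28429 RPM, so that this single region held 2.90% ± 0.0985 (SD, n = 3) of their autosomal island reads. Tumours stood at 5308 RPM at the lowest, 7823 at the median and 10390 at the highest, or 0.778% ± 0.175 (SD, n = 6). The groups lay far apart, with a log2 fold of -2.23 ± 0.15 (SE) and an adjusted p of 6.7e-07 by edgeR.

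A similar gap was seen at chr15:102559801-102983200, which held 2.36% ± 0.0963 (SD, n = 3) of neurosphere reads and 1.05% ± 0.220 (SD, n = 6) of tumour reads, with a log2 fold of -1.51 ± 0.13 (SE) and an adjusted p of 1.8e-06 by edgeR. At chr11:95938201-96380600 the shares were 1.92% ± 0.104 (SD, n = 3) and 1.03% ± 0.237 (SD, n = 6), with a log2 fold of -1.24 ± 0.15 (SE) and an adjusted p of 2.0e-05 by edgeR. The called length ran the other way. At this chromosome 11 region islands covered 373.0 to 433.6 kb in tumours and 197.6 to 211.6 kb in neurospheres, and at the chromosome 15 region 373.2 to 419.0 kb and 267.6 to 287.8 kb. All 3 were called in every WT and forebrain library.

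The largest rise was at chr12:111462001-111543000, an 81.0 kb region. Tumours stood at 461.2 RPM at the lowest, 520.3 at the median and 564.1 at the highest, and neurospheres at 9.02, 11.7 and 8.77 RPM. The tumours lay close together here, far above the cultures, with a log2 fold of 5.39 ± 0.25 (SE) and an adjusted p of 1.7e-07 by edgeR. The islands were 28.2 to 81.0 kb long in tumours and 1.6 to 2.0 kb in neurospheres.

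The second rise, at chr17:7031801-7079800, varied more among tumours. Its level ran from 135.1 RPM in tumour 5 through a median of 485.6 to 873.6 RPM, against 16, 9.37 and 13.6 RPM in neurospheres, a log2 fold of 5.07 ± 0.71 (SE) and an adjusted p of 6.6e-05 by edgeR. At chr5:120177001-120321400 the tumour median was 2709 RPM and the neurospheres had 86.3, 80.0 and 86.7 RPM (log2 fold 4.62, SE 0.22, edgeR adjusted p = 1.7e-07). This was the region with the highest tumour level among the 5, and all 5 WT tumours and 3 WT neurospheres called it. The last 2 rises were at chr11:53994801-54101400, with a log2 fold of 4.47, and chr6:49151601-49180200, with 4.45. The chromosome 11 region had no H3K4me3 peak in either tumour and no forebrain call, and the chromosome 6 region had H3K4me3 in both tumours and H3K27ac in none.

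The largest fall was at chr17:44863001-44880800, a 17.8 kb region. Neurospheres stood at 834.0, 942.5 and 833.7 RPM, and tumours at 17 RPM at the lowest, 32.8 at the median and 39.1 at the highest. The log2 fold was -5.13 ± 0.27 (SE) with an adjusted p of 2.1e-07 by edgeR, and tumour islands there were 3.0 to 9.2 kb long against 13.6 to 17.4 kb. At chr2:18523001-18553200 neurospheres had 540.5, 556.4 and 637.8 RPM and tumours a median of 39.3 RPM, a log2 fold of -4.06.

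At chr5:15427601-15451800 the tumours were uneven, from 26.3 RPM in tumour 3 to 317.4 RPM in tumour 5, and still below the 1225, 1349 and 1350 RPM of the cultures (log2 fold -3.91, SE 0.52, edgeR adjusted p = 4.8e-05). The last 2 falls were at chr6:77190401-77207600 and chr10:79378801-79421000, with log2 folds of -3.85 and -3.83. All 5 regions that fell had H3K27ac peaks in all 6 K27M tumours and H3K4me3 peaks in both. Of the 5 that rose, 1 had H3K27ac in all 6 tumours and 4 had H3K4me3 in both. Over the full sets the shares lay close together, with H3K27ac in all 6 tumours at 31.7% of the 575 regions that fell, 28.6% of the 728 that rose and 29.3% of all common regions. These 10 regions were taken from calls whose groups did not overlap in RPM, as was so for 1157 of the 1926 common regions (60.1%).

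**Figure D5:**
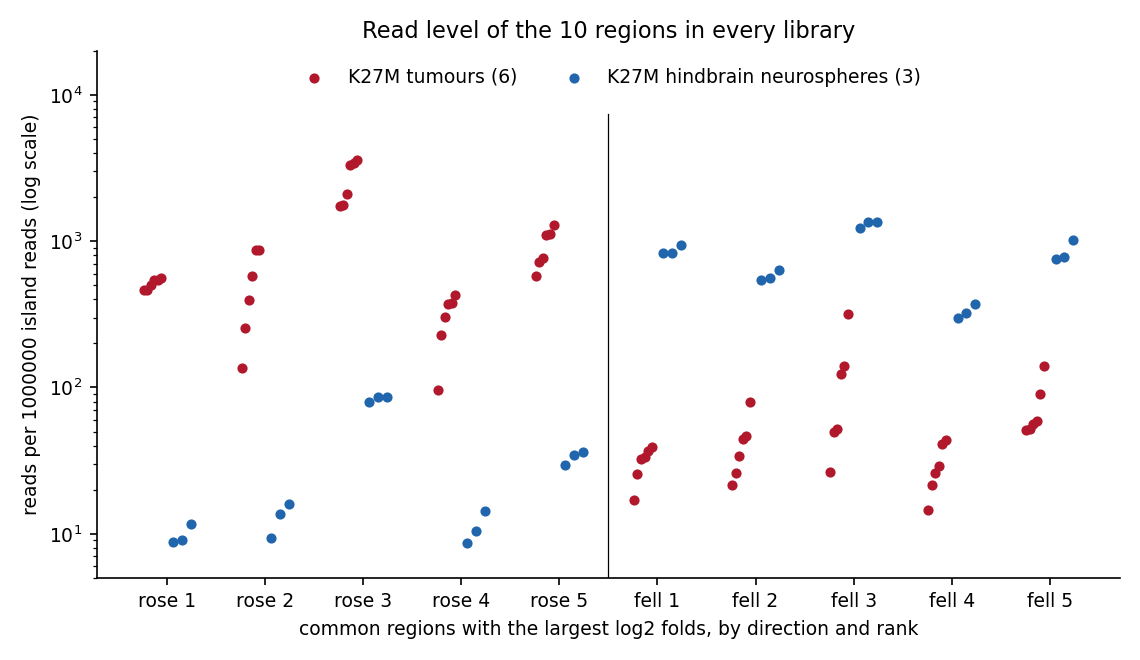
Reads per 1000000 autosomal island reads (log scale) in every K27M tumour and K27M hindbrain neurosphere, at the 5 common regions with the largest rise and the 5 with the largest fall in tumours. The groups do not overlap in any region; the first rise stands at 461.2 to 564.1 in tumours and 8.77 to 11.7 in neurospheres.

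The comparison of tumours with hindbrain neurospheres was also made in WT libraries, which lack the mutation. WT tumours covered 187.8 Mb ± 80.6 (SD, n = 5), while the 3 WT hindbrain neurospheres covered 144.9, 150.0 and 190.6 Mb, a ratio of 1.07 against the 3.43 of K27M. The K27M difference exceeded the WT difference by 1.68 on the log2 scale, but the test that permutes genotype within tumours and within neurospheres did not reach the threshold (exact permutation test, p = 0.0749, adjusted p = 0.150). The excess was 1.05 for island number (adjusted p = 0.183) and 0.75 for median width (adjusted p = 0.150) by the same exact test. The share of the 1000 strongest islands was lower in tumours in both genotypes, 0.516-fold in K27M and 0.603-fold in WT, and these ratios were not told apart (exact permutation test, p = 0.593).

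At single regions the K27M and WT differences largely ran together. Over the 1598 regions called in all 17 libraries, log2 folds of tumour over neurosphere had a Pearson correlation of 0.72 and a Spearman correlation of 0.71 across regions, which are not independent replicates and share libraries within each genotype. The 2 genotypes share no library. In K27M 1064 regions (66.6%) were called by edgeR and in WT 658 (41.2%). Both called 547, which were 51.4% of the K27M calls and 83.1% of the WT calls, and 528 of these had the same direction, 273 rising and 255 falling.

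Some regions differed between genotypes. The interaction term was past the threshold at 409 of 1598 regions (25.6%), positive at 246 and negative at 163 (edgeR quasi-likelihood F test, Benjamini-Hochberg). This split rested on the scaling, with 408 positive and 26 negative under library size alone and 219 and 291 under DESeq2. The median interaction was 0.09, 0.64 and -0.12 on the log2 scale in the 3 fits. With sex, which was not balanced between genotypes, as a covariate in edgeR, 152 were positive and 90 negative.

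The largest positive interaction was at chr6:49151601-49187200, which contains the fifth of the rising regions above. K27M neurospheres had 34.8, 29.5 and 36.1 RPM there, against 589.5 to 1309 RPM in K27M tumours, 293.3 to 397.0 RPM in WT tumours and 458.9 to 510.3 RPM in WT neurospheres. The K27M cultures thus stood apart from the other 3 groups, and the interaction was 4.78 on the log2 scale (SE 0.27, edgeR adjusted p = 2.0e-09). At chr8:91506601-91592400 the tumour difference was 1.82 in K27M and -2.19 in WT, an interaction of 4.01 (SE 0.88, edgeR adjusted p = 0.0045). At chr6:54362401-54448200 the interaction was 3.88 (SE 0.80, edgeR adjusted p = 0.0030), with 9.77, 6.40 and 29.5 RPM in K27M neurospheres and 85.2 to 540.5 RPM in WT neurospheres.

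Negative interactions were smaller. At chr5:107597601-107685000 K27M tumours had 31.3 to 99.7 RPM, and the other 3 groups lay between 193.0 and 720.7 RPM, an interaction of -2.88 (SE 0.60, edgeR adjusted p = 0.0033). At chr14:122797001-122814200 and chr8:48488201-48505800 the K27M neurospheres had 94.4 to 301.4 and 225.0 to 267.6 RPM. WT neurospheres had 19.9 to 45.3 and 24.5 to 52.3 RPM. K27M tumours overlapped the K27M neurospheres at both regions, with 36.1 to 136.3 and 42.8 to 293.6 RPM. The interactions there were -2.74 and -2.69.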

How the data were processed

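Chromatin immunoprecipitation for H3K27me3 was sequenced from snap-frozen tumours and from cultured cells, per the labels' protocols. Each deposited island list came from 1 sample and holds whole read counts per island in mouse build mm9. Per the file names, islands used windows of 200 bp, gaps of 600 bp and a false discovery rate of 0.00001. The tools listed, without roles, in the submitters' processing notes are SICER 1.1, MACS2, bedtools 2.25.0, BWA 0.7.12, SAMtools, Picard and R 2.14.0. H3K27ac and H3K4me3 peaks were used as intervals, and their deposited −log10 q values, at least 2.01, were used only to describe the lists. The 23 samples without a file were not analysed here. Per the labels' protocols, fly chromatin was mixed in ahead of the immunoprecipitation, and no scale factor was used here.

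Island ends were read as the last base, and islands of the 9 lists were merged at an overlap of 1 bp. A region counted as called in each library with an island in it. RPM is reads per 1000000 autosomal island reads. Group means of log2 values were compared by two-sided exact permutation over 84 arrangements, and the difference between genotypes over 9240. Numbers of calling libraries went into Fisher's exact test per region. Reads over regions called in every library entered a quasi-likelihood fit in edgeR 4.0.16 under R 4.3.3 (TMM, Benjamini-Hochberg over all such regions, threshold 0.05), after a test on simulated data. The SE came from the F statistic. DESeq2 1.42.0 was an alternative. Other steps ran in Python 3.11.15 with SciPy 1.17.1, pandas 2.3.3, numpy 2.4.6 and matplotlib 3.10.9. The other alternatives were all chromosomes, lists cut to equal number, a stricter island threshold, female libraries alone, sex as a covariate, other filters, overlaps and merging, and each library left out.

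Named regions were the 5 per direction with the largest log2 fold among calls whose groups did not overlap, the 5 per direction with most reads among fully separated regions, the 3 per direction with the largest interaction and the 3 common regions with the highest mean share. The members and lists were chosen with earlier results of these data known. No gene annotation or sequence of build mm9 was used here, so regions are named by position, no gene or cell type marker list was applied and no sequence is printed. Experiment numbers in the labels are shared between K27M and WT neurospheres and are absent for tumours.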

Additional observations from a re-analysis of the deposited data

Results flagged for a closer look

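At 6 regions the tumour to neurosphere difference itself differed between K27M and WT, by edgeR's test of the interaction with Benjamini-Hochberg adjustment. These are the 3 largest past the threshold in each direction. The interaction was 4.78 at chr6:49151601-49187200, 4.01 at chr8:91506601-91592400 and 3.88 at chr6:54362401-54448200 on the log2 scale, where the difference was higher in K27M. It was -2.88 at chr5:107597601-107685000, -2.74 at chr14:122797001-122814200 and -2.69 at chr8:48488201-48505800. Each of the 6 stayed past the threshold with the same sign in every alternative that tested it, 21 alternatives for chr6:54362401-54448200 and 22 for each of the others.

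Neurosphere libraries were uneven at several of these regions. K27M cultures had 9.77, 6.40 and 29.5 RPM at chr6:54362401-54448200, and WT cultures had 85.2, 303.4 and 540.5 RPM there. At chr8:91506601-91592400 the K27M cultures had 13.5, 72.0 and 167.1 RPM and the WT cultures 251.8, 861.2 and 824.7 RPM. At chr14:122797001-122814200 the K27M cultures had 301.4, 258.0 and 94.4 RPM.

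No tumour stood far from the other 5 in any of 24 groups of values examined, which were the 4 measures per library and the RPM of named regions present in tumours, by Dixon's ratio of gap to range at its critical value of 0.625. Read density was not among these values. Tumour 6 had 76.8 reads per kb of island, against 35.0 to 44.2 in the other tumours.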

How the results depend on the processing

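Covered length was 2.89-fold at a stricter island threshold (exact permutation test, adjusted p = 0.119) and 2.13-fold in females, and 3.13 to 4.01-fold with each library left out. Island number was 2.78-fold and 1.77-fold in those settings, and 2.50 to 3.29-fold with each library left out. The top share was 0.637-fold in females and 0.495 to 0.541-fold with each library left out. Over equal lists it was 54.8% to 62.4% in tumours and 83.3% to 86.4% in neurospheres. At the stricter threshold it was 45.0% to 85.7% in tumours and 88.3% to 91.5% in neurospheres. Adjusted p rose to 0.0714 for length and top share without neurosphere B or C, and for island number without tumour 1 or 2. Without neurosphere B or C it was 0.0952 for island number. Median width was 2.55-fold over equal lists, and its groups overlapped at the stricter threshold. The genotype difference in top share reversed to 0.14 in females.

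Regions of the tumours only and neurospheres only numbered 521 and 1159 over equal lists, 506 and 310 at the stricter threshold and 2925 and 1192 in females, where no Fisher test could pass. With each library left out, 0 to 2848 and 0 to 690 passed Fisher's test, and over equal lists 521 and 1159 did. Over regions called in at least 3 libraries, with uncalled ones taken as 0 reads, 4273 rose and 1204 fell.

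The interaction was positive and negative at 408 and 26 regions by library size alone, 219 and 291 by DESeq2, 152 and 90 with sex as a covariate, and 153 to 273 and 88 to 207 with each library left out, the lowest counts coming without K27M neurosphere B and WT neurosphere F. With experiment number as a replicate block it was positive at 212 and negative at 124. No paired analysis was possible because tumours carry no experiment number for the main comparison. Leaving out WT libraries was added after seeing the data. All 10 regions named for their rise or fall stayed past the threshold with the same sign in every alternative that tested them. The lists give no background counts, so differences below the calling threshold were not detectable.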

Other observations

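Tumours differed from each other in the extent of their islands more than the neurospheres did. The length of 1 tumour's islands lying inside those of another ran from 23.1% to 94.0% (median 62.5%) over 30 ordered pairs, against 70.9% to 89.2% (median 78.9%) over 6 ordered pairs of neurospheres. Regions called in a single tumour and in no neurosphere held 0.619% to 10.7% of a tumour's island reads. They were short, with a median width of 3.2 kb. Of these 20259 regions, 0.869% were called in all 5 WT tumours and 51.9% in none, and 6.51% had H3K4me3 in both tumours profiled.

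The 4 regions with the highest mean share, of which the last, chr2:74464801-74664000, was added after its values were seen, together held 9.02%, 9.66% and 9.02% of island reads in the neurospheres. In tumours they held 2.46% at the lowest and 4.58% at the highest.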
